A study of Mus musculus with 8 samples.

Results

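The 10 immediate early genes described here, which are also induced when tissue is taken apart, were followed through the bulk RNA-seq of sorted intestinal epithelial cells (IECs): Fos, Fosb, Jun, Junb, Egr1, Atf3, Ier2, Ier3, Dusp1 and Zfp36. They were taken by name from a list that was drawn up with earlier results of these data known, and all 10 were among the 25239 genes of the count table, of which 19088 had at least 1 count. The study asked what the epithelium gains from natural killer T (NKT) cells and from CD1d, the lipid-presenting molecule without which they do not develop. It compared 4 samples from CD1d-KO mice (genotype CD1d1/2 KO, which have no NKT cells) with 4 from WT mice (C57BL/6Jax), none of them treated. Mice were 7 to 10 weeks old. The study's methods describe males and females with age and sex matched across genotypes. The samples came from 2 experiments, and the labels give neither the sex nor the experiment of a sample. The deletion is present in every cell of the mouse, so a difference cannot be assigned to the epithelium or to the missing NKT cells.

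Immediate early genes are transcribed within minutes of a stimulus without new protein synthesis. Growth factors, stretch, cell detachment and heat act on kinase cascades that end in transcription factors already present in the nucleus, among them SRF with its ELK partners and CREB. Many of the products are themselves transcription factors, the transcripts are short-lived, and dissociation of tissue at body temperature is a well-known inducer in many tissues, the intestine included. The crypts of the proximal small intestine were released in EDTA, first on ice and then for 10 min at 37 °C, and were dissociated with dispase and collagenase for a further 10 min at 37 °C. EpCAM+CD45-CD31-Ter119- cells, 150000 per sample, were then sorted into lysis buffer. No sample was taken without dissociation, so how much of a level was present in the tissue cannot be told apart from how much arose during the preparation.

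Promoters are shown for Fos, Fosb, Jun and Junb, which with Egr1 made up the pairs that passed the test of correlation given further on. That of Zfp36, whose sample pattern was least like the mean of the 10, is shown as well. SRF, CREB and EGR sites near the start are among the places where a stimulus can be read. The RefSeq table (GRCm38.p6, the assembly also called mm10) held 8 of the 10 promoters, and Egr1 and Ier2 had no entry. Each sequence runs from 250 bases before the start to 50 after it, 5′ to 3′ on the strand of the gene, and capitals mark TGACG (the core of the CREB site), TATAAA (the TATA box), CCAAT (the box bound by NF-Y), GCGGGGGCG (an EGR site) and the CArG box bound by SRF, searched on both strands.
Fos (chr12:85473640-85473939, plus strand): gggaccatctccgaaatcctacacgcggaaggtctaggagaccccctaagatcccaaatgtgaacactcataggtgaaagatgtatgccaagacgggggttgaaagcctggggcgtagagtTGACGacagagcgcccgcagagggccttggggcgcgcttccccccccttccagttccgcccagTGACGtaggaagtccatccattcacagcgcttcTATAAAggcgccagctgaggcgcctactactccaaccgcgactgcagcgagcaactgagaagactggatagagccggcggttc
Fosb (chr7:19309996-19310295, minus strand): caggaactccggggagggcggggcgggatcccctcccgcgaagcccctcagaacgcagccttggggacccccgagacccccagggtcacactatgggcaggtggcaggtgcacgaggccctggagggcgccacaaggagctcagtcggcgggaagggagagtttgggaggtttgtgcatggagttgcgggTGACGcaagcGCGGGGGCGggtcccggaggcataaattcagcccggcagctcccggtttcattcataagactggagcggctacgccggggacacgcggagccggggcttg
Jun (chr4:95052173-95052472, minus strand): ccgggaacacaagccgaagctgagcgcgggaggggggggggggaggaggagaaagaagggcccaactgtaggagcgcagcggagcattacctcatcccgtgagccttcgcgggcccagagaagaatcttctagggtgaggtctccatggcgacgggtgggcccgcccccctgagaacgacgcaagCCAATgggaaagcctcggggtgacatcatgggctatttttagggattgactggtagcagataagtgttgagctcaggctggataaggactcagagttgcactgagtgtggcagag
Junb (chr8:84978699-84978998, minus strand): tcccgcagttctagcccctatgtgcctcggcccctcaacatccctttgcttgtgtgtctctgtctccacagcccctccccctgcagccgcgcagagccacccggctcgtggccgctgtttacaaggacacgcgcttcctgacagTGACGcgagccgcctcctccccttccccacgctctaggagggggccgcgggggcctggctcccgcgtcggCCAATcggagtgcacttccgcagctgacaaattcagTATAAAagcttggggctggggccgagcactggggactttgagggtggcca
Zfp36 (chr7:28379179-28379478, minus strand): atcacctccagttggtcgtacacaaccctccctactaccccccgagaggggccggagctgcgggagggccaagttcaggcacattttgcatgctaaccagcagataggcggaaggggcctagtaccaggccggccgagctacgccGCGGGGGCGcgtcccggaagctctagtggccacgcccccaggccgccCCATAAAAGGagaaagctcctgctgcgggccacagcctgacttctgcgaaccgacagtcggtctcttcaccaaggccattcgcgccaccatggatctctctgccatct

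TGACG was found in 5 of the 8 promoters (Fos, Fosb, Junb, Atf3 and Dusp1) and in 20.8% of the 32851 promoters of the table. It was present in Fos at 129 and again at 66 bases before the start, and the whole palindrome TGACGTCA, which contains it, was found in Dusp1 alone and in 1.79% of all promoters. TATAAA was in Fos and Junb (13.6% of all promoters), 33 bases before the start in Fos. In Junb the match lay at the annotated start itself, which is not the usual place of a TATA box. CCAAT was in Jun, Junb, Atf3 and Ier3 (37.4%), GCGGGGGCG in Fosb and Zfp36 (2.91%) and the CArG box in Zfp36 alone (1.63%). TGACTCA, an AP-1 site that FOS and JUN proteins bind, was in 0 of the 8 windows and in 5.20% of all promoters. These are exact matches of letters in a short window. Variants that differ by a letter, such as TGACATCA in the Jun sequence above, were not searched. Sites outside the window, SRF sites further upstream included, were not searched either, so absence of a match is not absence of a site.

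The samples held between 23610266 and 31629435 counts. Epithelial markers made up the bulk of the marker counts, with summed normalised counts of 315275 to 352867 for 9 genes, and none of these 9 was called between genotypes. The 14 leukocyte markers found in the table summed to 917 to 1040 in CD1d-KO and 1144 to 2221 in WT samples, highest in WT 1. Itgam made up most of each sum (678 to 848 in CD1d-KO and 844 to 1169 in WT samples). Of the 11 tested, 5 were called, all lower in CD1d-KO: Itgam, Cd3g, Cd8a, Jchain and Coro1a. The 9 stomach markers summed to 147 to 671 in CD1d-KO and 1564 to 12630 in WT samples, highest in WT 3, and 6 were called, all lower in CD1d-KO. In bulk samples fewer cells of a type and less RNA per cell cannot be told apart. The 8 stroma and endothelium markers summed to at most 53.0 and the 6 erythroid markers to at most 15.7 in any sample, with 5 of the erythroid markers at 0 counts in all samples. Y-linked genes were counted in CD1d-KO 1 and CD1d-KO 2 (5574 and 6946) and were at or near 0 in the other samples, so sex was not balanced between the genotypes in these libraries. The targeted gene Cd1d1 had 7.15, 2.86, 4.89 and 0 normalised counts in CD1d-KO 1 to 4 and 79.5, 73.4, 91.1 and 61.1 in WT 1 to 4.

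The immediate early genes were detected in all samples of both genotypes, 9 of them at or above the 78.5th percentile of expressed genes by level per length and Ier3 at the 57.5th, and no difference between the genotypes passed the test. By DESeq2, 0 of 10 passed an adjusted p of 0.05, where 622 of the 15446 genes tested did (4.03%; 255 higher and 367 lower in CD1d-KO). By edgeR's quasi-likelihood test 0 of 10 passed as well, and 228 genes in all. At an unadjusted p under 0.05, 0 of 10 members were found, against 2357 genes (15.3%). The genotypes overlapped in all 10, where 1484 genes (9.61%) had no overlap. Of the 10, 3 were higher and 7 lower in CD1d-KO, with a median log2 fold change of -0.05 against 0.00 over all genes tested. The fold change was smaller than its own standard error (SE) in 8 of 10 and smaller than the spread within genotypes in 10 of 10. These tests do not show that the levels are equal. The 95% intervals reached from -0.73 to 0.56 on the log2 scale, a fold of 0.604 to 1.48. Changes of 2-fold or more thus lie outside the interval of each of the 10 in this DESeq2 fit of all 8 samples. In simulated data DESeq2 made more false calls than its threshold allows, so these intervals may be too narrow.

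**Figure D1:**
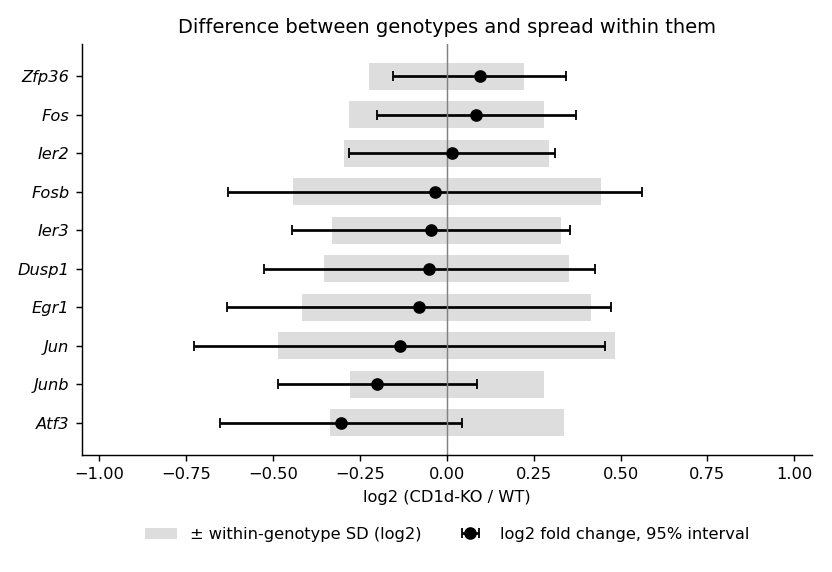
Log2 fold change of CD1d-KO over WT for each gene (points) with its 95% interval from DESeq2 (lines, n = 4 per genotype), over a grey bar of ± 1 within-genotype SD of log2 normalised counts. All 10 points lie inside their grey bar and all intervals include 0, from Atf3 at -0.30 to Zfp36 at 0.09.

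Fos and Fosb encode the FOS partners of the AP-1 dimer. Fos had 8038, 9887, 8667 and 11719 normalised counts in CD1d-KO 1 to 4 and 10449, 10049, 6447 and 9181 in WT 1 to 4. The highest value was CD1d-KO 4 and the lowest WT 3, with the rest intermixed. The means were 9578 ± 1620 and 9032 ± 1802 (SD, n = 4), and the log2 fold change was 0.08 (SE 0.15, DESeq2 adjusted p = 0.877). Fosb had 2451, 2633, 1961 and 3054 normalised counts in CD1d-KO 1 to 4 and 3613, 3094, 1499 and 2137 in WT 1 to 4. The WT samples enclosed the CD1d-KO samples, and the largest WT value was 2.41 times the smallest. The log2 fold change of Fosb was -0.03 (SE 0.30, DESeq2 adjusted p = 0.983).

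Jun and Junb encode the JUN partners, of which JUN is activated by the stress kinase JNK and JUNB often dampens it. Jun had 13698, 17923, 9157 and 13072 normalised counts in CD1d-KO 1 to 4 and 19816, 12922, 8411 and 18029 in WT 1 to 4. High samples (CD1d-KO 2, WT 1 and WT 4) and low samples (CD1d-KO 3 and WT 3) were found in both genotypes. Jun had the widest spread of the 10, a within-genotype SD of 0.49 on the log2 scale, and its log2 fold change was -0.14 (SE 0.30, adjusted p = 0.913 by DESeq2). Junb had 3823, 4263, 2794 and 4360 normalised counts in CD1d-KO 1 to 4 and 5112, 4626, 3354 and 4412 in WT 1 to 4. Its 4 CD1d-KO values lay below 3 of the 4 WT values, with WT 3 lower than 3 of the CD1d-KO samples. The means were 3810 ± 717 and 4376 ± 741 (SD, n = 4), and the log2 fold change was -0.20 (SE 0.15, adjusted p = 0.580 by DESeq2).

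Egr1 encodes a zinc finger factor induced through SRF, and Atf3 a factor of the ATF/CREB family that responds to many stresses. Egr1 had 7678, 9848, 6317 and 10028 normalised counts in CD1d-KO 1 to 4 and 11908, 9606, 5311 and 8997 in WT 1 to 4. WT 1 was the highest and WT 3 the lowest sample, so that WT spanned 2.24-fold and enclosed CD1d-KO. The log2 fold change was -0.08 (SE 0.28, DESeq2 adjusted p = 0.953). Atf3 had 887, 982, 986 and 1183 normalised counts in CD1d-KO 1 to 4 and 1704, 1417, 885 and 979 in WT 1 to 4. WT 1 and WT 2 were above all CD1d-KO samples, and WT 3 and WT 4 were within or below them. Its log2 fold change of -0.30 (SE 0.18) was the furthest from 0 among the 10 and did not pass the test (unadjusted p = 0.0862, DESeq2 adjusted p = 0.430). Without WT 3 it was -0.44 with an adjusted p of 0.128 by DESeq2, the smallest that any of the 10 reached under any setting tried.

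Ier2 and Ier3 are small immediate early proteins, IER2 nuclear and IER3 linked to survival under stress. Ier2 had 6213, 6123, 4736 and 6445 normalised counts in CD1d-KO 1 to 4 and 7084, 6345, 3965 and 5896 in WT 1 to 4. Replicate 3 was the lowest sample of each genotype. The log2 fold change was 0.01 (SE 0.15, DESeq2 adjusted p = 0.986). Ier3 was the lowest of the 10, with 209, 249, 163 and 154 normalised counts in CD1d-KO 1 to 4 and 275, 179, 160 and 186 in WT 1 to 4. It was the one gene of the 10 for which CD1d-KO 4 was the lowest sample. Its log2 fold change was -0.05 (SE 0.20, DESeq2 adjusted p = 0.964).

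Dusp1 and Zfp36 belong to the feedback arm: DUSP1 is a phosphatase that switches off MAP kinases, and ZFP36 (tristetraprolin) binds AU-rich transcripts and leads them to decay. Dusp1 had 1080, 1438, 1001 and 1303 normalised counts in CD1d-KO 1 to 4 and 1612, 1156, 805 and 1419 in WT 1 to 4. WT spanned 2.00-fold and enclosed CD1d-KO, and the log2 fold change was -0.05 (SE 0.24, DESeq2 adjusted p = 0.969). Zfp36 had 6320, 7312, 6918 and 9991 normalised counts in CD1d-KO 1 to 4 and 7824, 7515, 6413 and 6855 in WT 1 to 4. CD1d-KO 4 stood above the other samples, and the rest of both genotypes overlapped. Zfp36 had the narrowest spread, a within-genotype SD of 0.22 on the log2 scale, and its log2 fold change was 0.09 (SE 0.13, adjusted p = 0.828 by DESeq2).

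**Figure D2:**
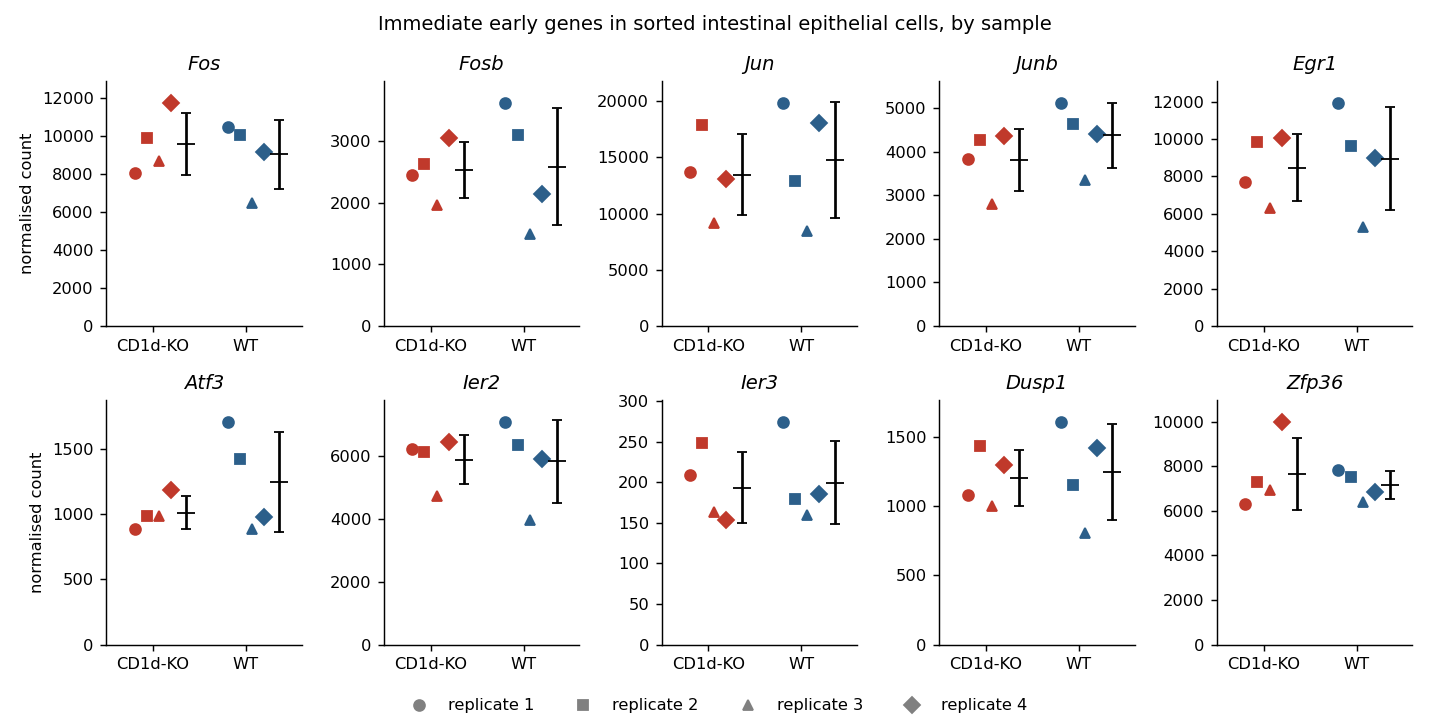
Normalised counts (y axes from 0, a scale for each gene) of the 10 genes in CD1d-KO (red) and WT (blue) samples, with a marker shape for each replicate number and the mean ± SD (n = 4) in black. The genotypes overlap in all 10 panels, and WT 1 (blue circle) is the highest of the 8 samples in 8 of them.

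Levels were compared between genes per length, in TPM (a count divided by exon length and scaled to the same total in each sample) computed from the counts and the exon lengths of the table. The mean over 8 samples was 370 TPM for Jun, 367 for Fos, 348 for Zfp36, 320 for Ier2, 236 for Egr1 and 185 for Junb, followed by 56.3 for Fosb, 52.6 for Dusp1, 47.5 for Atf3 and 15.1 for Ier3. Jun, Fos, Zfp36 and Ier2 differed by less than the SD of Jun among the samples of a genotype (103 TPM in CD1d-KO and 137 TPM in WT), and Fosb, Dusp1 and Atf3 by less than that of Fosb (10.5 and 21.0 TPM). Junb and Fosb did not overlap in any sample (121 to 233 against 32.9 to 80.3 TPM), nor did Atf3 and Ier3 (37.2 to 72.4 against 11.6 to 21.2 TPM). The 10 genes together took 0.129% (WT 3) to 0.247% (WT 1) of the counts of a sample, 0.187% ± 0.0310 in CD1d-KO and 0.193% ± 0.0484 in WT (SD, n = 4).

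Replicates of one genotype differed more in these genes than in most genes. The within-genotype SD of log2 normalised counts had a median of 0.33 over the 10, against 0.11 over the 10941 genes whose mean count was 100 or more. Of the 10, 9 were at or above the 90th percentile of these genes, and Zfp36 was at the 87.6th. The WT SD was larger than the CD1d-KO SD in 8 of 10, Junb and Zfp36 being the others.

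**Figure D3:**
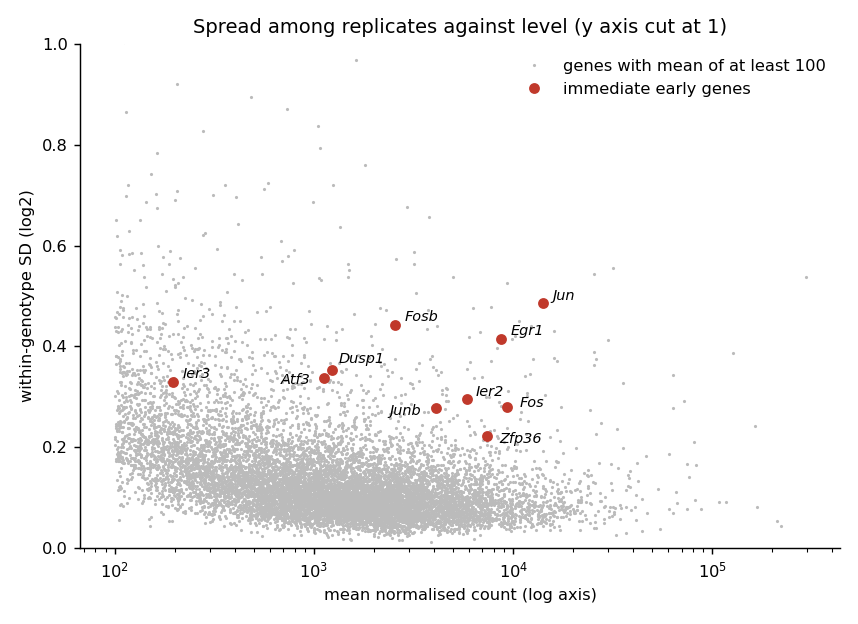
Within-genotype SD of log2 normalised counts (y axis) against the mean normalised count (log x axis) for genes with a mean of at least 100 (grey) and for the 10 immediate early genes (red). The red points lie in the upper part of the cloud, from 0.22 (Zfp36) to 0.49 (Jun), and 24 genes lie above the top of the axis.

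The same samples were high or low for most of the 10. WT 1 was the highest of its genotype for 10 and WT 3 the lowest of its genotype for 10, while CD1d-KO 3 was below the mean of its genotype for 10 and CD1d-KO 4 was the highest of its genotype for 7. Of the 45 pairs, 44 had a positive Pearson r of log2(normalised count + 1) over the 8 samples (median 0.69, from -0.11 for Ier3 and Zfp36 to 0.95 for Egr1 and Ier2), and the median was 0.77 with each genotype centred on its own mean. The samples share depth scaling and preparation, so these values are a description. Pairs among other genes were not computed, so the values are not shown to be particular to the 10. WT 1 also had the highest leukocyte marker sum and WT 3 the highest stomach marker sum. The 5 crypt markers, of stem and cycling cells, summed to 243064, 233381, 190529 and 173238 normalised counts in CD1d-KO 1 to 4 and 221861, 175863, 157435 and 190250 in WT 1 to 4. The sums were thus lowest of all samples in WT 3 and highest of the WT samples in WT 1, whereas CD1d-KO 4, high for most of the 10, was the lowest CD1d-KO sample. Olfm4 made up most of each sum (206041 in CD1d-KO 1 and 127311 in WT 3). Lgr5, Mki67 and Top2a were also lowest of all samples in WT 3 and highest of the WT samples in WT 1. Ascl2 was instead highest of all samples in WT 3 (614). Lgr5 and Mki67 were lowest of the CD1d-KO samples in CD1d-KO 3 rather than CD1d-KO 4. The 6 villus markers summed to 102311 to 154456 in CD1d-KO (highest in CD1d-KO 4) and 96706 to 121533 in WT samples (lowest in WT 1). Their log2 fold changes ran from 0.05 to 0.53, with a median of 0.46. No crypt or villus marker was called between genotypes, where 4.03% of all genes tested were. The part of any of these in the levels of the immediate early genes was not tested.

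The 7 pairs chosen for testing were tested by an exact two-sided permutation test, with p-values adjusted over the 7 pairs, and 3 passed. Pairs of other genes were not tested, so the count of 3 has no share over all genes beside it. Fos and Egr1 had r = 0.88 (exact permutation p = 0.00322, adjusted 0.0207) and Spearman's rho = 0.93 (exact permutation p = 0.00223, adjusted 0.0156). Fos and Fosb had r = 0.87 (exact permutation p = 0.00593, adjusted 0.0207) and rho = 0.86 (exact permutation p = 0.0107, adjusted 0.0375). Jun and Junb had r = 0.83 (exact permutation p = 0.0108, adjusted 0.0252) and rho = 0.67 (exact permutation p = 0.0831, adjusted 0.145). Within genotypes r was 0.91, 0.88 and 0.86 for these 3 pairs, and without the 2 samples farthest from the median of the first gene it was 0.84, 0.74 and 0.75 (n = 6). Without WT 3 none of the 7 pairs passed (r of 0.75, 0.71 and 0.81 for the 3), although the values of r stayed positive. Jun and Junb also lost the call without CD1d-KO 3 (adjusted exact permutation p = 0.0708), WT 1 (0.109) or WT 4 (0.0528), and without CD1d-KO 3 Fos and Junb passed in their place (0.0375).

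The other 4 pairs did not pass. Fos and Junb had r = 0.64 (exact permutation p = 0.0899, adjusted 0.154) and rho = 0.74 (exact permutation p = 0.0458, adjusted 0.107). Ier2 and Ier3 had r = 0.58 (exact permutation p = 0.110, adjusted 0.154) and rho = 0.33 (exact permutation p = 0.428, adjusted 0.462). Dusp1 and Zfp36 had r = 0.48 (exact permutation p = 0.229, adjusted 0.260) and rho = 0.57 (exact permutation p = 0.151, adjusted 0.212). Jun and Atf3 had r = 0.44 (exact permutation p = 0.260, adjusted 0.260) and rho = 0.31 (exact permutation p = 0.462, adjusted 0.462). Without the 2 samples farthest from the median of the first gene, these were 0.70, 0.41, 0.32 and -0.16 in the same order.

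Heat shock genes are a second set known to respond to dissociation, and Hspa1a and Hspa1b varied in another sample order than most of the 10. Hspa1a, an inducible HSP70 chaperone, had 5986, 10372, 267 and 956 normalised counts in CD1d-KO 1 to 4 and 7257, 1945, 2786 and 12954 in WT 1 to 4. Hspa1b, its near-identical neighbour, whose counts may include reads of Hspa1a, had 8339, 14563, 751 and 2113 in CD1d-KO 1 to 4 and 9784, 3168, 4528 and 17953 in WT 1 to 4. Both were high in CD1d-KO 1, CD1d-KO 2, WT 1 and WT 4 and lowest in CD1d-KO 3, and neither was called (Hspa1a log2 fold change -0.50, SE 1.09, DESeq2 adjusted p = 0.910). CD1d-KO 1 and CD1d-KO 2 are the samples with Y-linked counts. The 14 heat shock genes listed had no single order. Hspd1, a mitochondrial chaperone, and Hspa5, the chaperone of the endoplasmic reticulum, were highest in CD1d-KO 3 (27245 and 32287 normalised counts), and Dnajb1, an HSP40 partner of HSP70, had r = 0.61 with the mean of the 10.

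**Figure D4:**
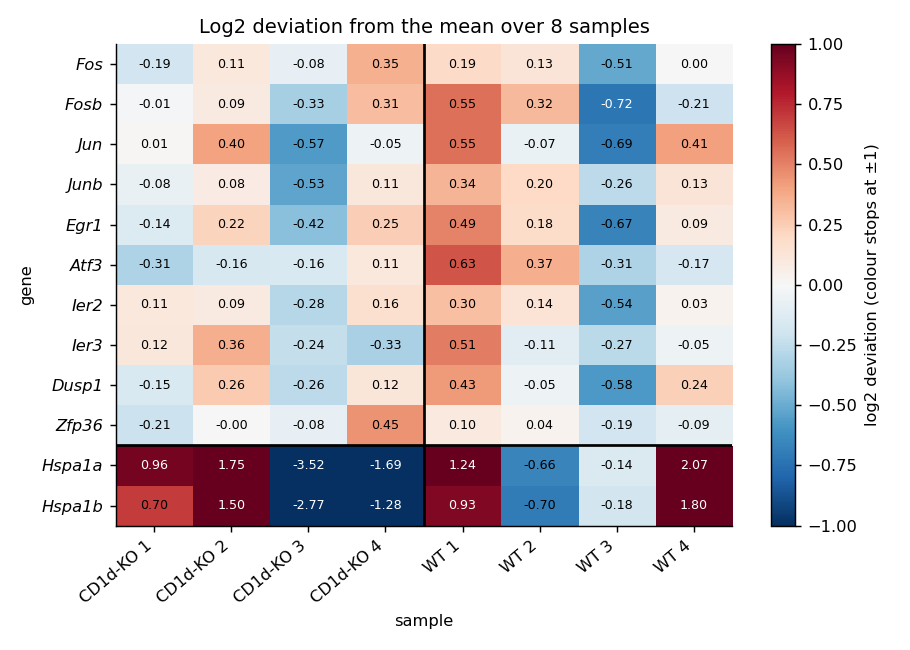
Log2 deviation of each gene (rows) in each sample (columns) from its mean over the 8 samples, with the value printed and the colour stopping at ± 1, and Hspa1a and Hspa1b below the line. WT 1 is above the mean and WT 3 below it for all 10 immediate early genes, whereas WT 4 and CD1d-KO 2 are highest for Hspa1a and Hspa1b.

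After this difference in order was seen, each of the 10 was compared with Hspa1a over the 8 samples, and 0 of the 10 relations passed after adjustment over the 10. Jun had r = 0.74 (exact permutation p = 0.0373, adjusted 0.320) and rho = 0.76 (exact permutation p = 0.0368, adjusted 0.288), with r = 0.75 within genotypes and 0.76 without CD1d-KO 3 and CD1d-KO 4, the samples farthest from the median of Hspa1a. Fos had r = -0.02 (exact permutation p = 0.957, adjusted 0.989) and rho = -0.05 (exact permutation p = 0.935, adjusted 0.977). Ier3 (r = 0.68), Junb (0.63), Dusp1 (0.50), Egr1 (0.41) and Ier2 (0.38) were also positive. Fosb was at 0.17, Atf3 at 0.01 and Zfp36 at -0.27. The difference between the values of r of Jun and Fos was not tested.

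**Figure D5:**
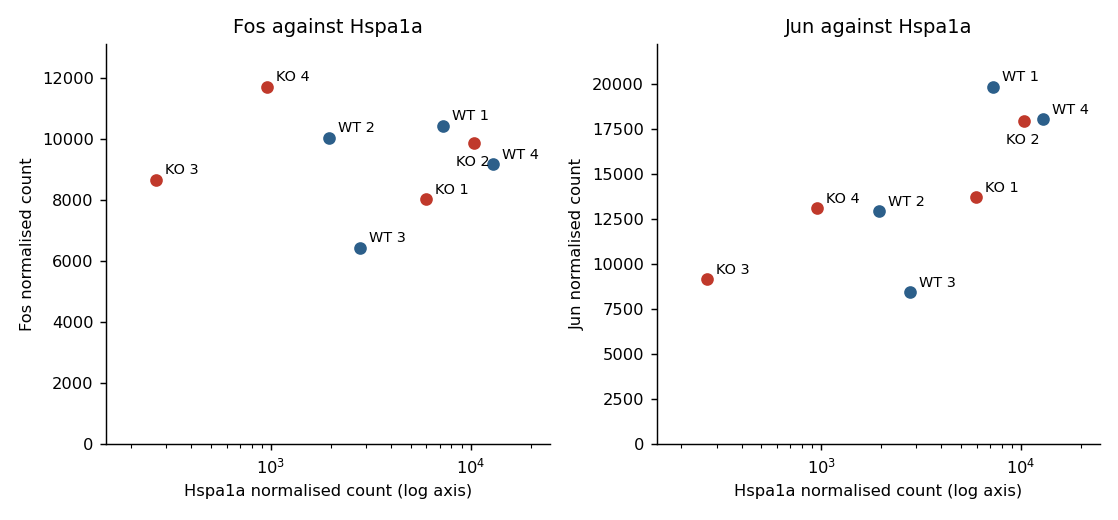
Normalised counts of Fos (left) and Jun (right) on the y axes against Hspa1a (log x axis) in the 8 samples, CD1d-KO in red and WT in blue. Jun is highest in samples with high Hspa1a (r = 0.74, adjusted p = 0.320 by an exact permutation test) and Fos shows no such order (r = -0.02).

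Other genes of these pathways were taken from lists of 120 genes, of which 116 were tested and 5 were called (DESeq2), a share near the 4.03% of all genes. None of the 31 other immediate early genes tested, 12 ERK feedback genes, 21 upstream MAPK and SRF components, 9 EGF receptor and ligand genes, 14 heat shock genes or 9 integrated stress response genes was called. Nr4a1, an orphan nuclear receptor, had 159, 166, 180 and 194 normalised counts in CD1d-KO 1 to 4 and 390, 239, 137 and 199 in WT 1 to 4, with WT 1 highest and WT 3 lowest as for the 10 (log2 fold change -0.47, SE 0.25, DESeq2 adjusted p = 0.367). Myc (-0.03, SE 0.10) and Jund (-0.08, SE 0.09), a JUN protein that is made constantly, had log2 fold changes near 0. In the other lists the lowest p-values belonged to Dusp8 (log2 fold change -0.49), Btg1 (0.28), Srf (-0.14), Ereg (0.41), Hspd1 (0.21) and Ddit3 (-0.37), with DESeq2 adjusted p of 0.0803, 0.185, 0.271, 0.305, 0.242 and 0.165. The genes next in order in these lists were not called either, nor were Jdp2 and Atf2, next after Batf2 in the list of other AP-1 and dimer partners. They ran from Jdp2 (-0.60, SE 0.45) and Areg (-0.44, SE 0.27) to Sgk1 (0.37, SE 0.16). Between them were Atf5 (-0.28), Hspa5 (-0.21), Elk1 (-0.19), Atf4 (-0.06), Map2k4 (0.12), Atf2 (0.13), Hsp90ab1 (0.13), Gadd45a (0.20), Errfi1 (0.24), Spry1 (0.25) and Btc (0.27), all log2 fold changes.

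Of the 5 called genes, 4 were among the 10 genes of mRNA decay and NF-kB feedback. Zc3h12a, which encodes the endonuclease regnase-1, had 1462, 1469, 1182 and 1016 normalised counts in CD1d-KO 1 to 4 and 2636, 2540, 2190 and 1812 in WT 1 to 4. All CD1d-KO samples were below all WT samples, and the gene fell by 0.84 on the log2 scale (SE 0.14, adjusted p = 5.2e-07 by DESeq2). Tnfaip3 (A20, a brake on NF-kB signalling) fell by 0.36 (log2; SE 0.09, DESeq2 adjusted p = 0.00323) and Nfkbia, the inhibitor IκBα, fell by 0.34 (SE 0.10, DESeq2 adjusted p = 0.0191). Zfp36l2, a relative of Zfp36 named here after its value was seen, rose by 0.20 (SE 0.06, DESeq2 adjusted p = 0.0278). The fifth was Batf2, an AP-1 dimer partner known for its induction by interferon, which fell by 0.53 on the log2 scale (SE 0.12, adjusted p = 0.00039 by DESeq2). By edgeR's quasi-likelihood test 3 of the 5 were called, Zc3h12a (adjusted p = 0.0116), Batf2 (0.0324) and Tnfaip3 (0.0454). The leukocyte and stomach markers were lower in CD1d-KO in the same comparison, and their part in these 5 differences was not tested.

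The genes whose sample pattern was most like the mean of the 10 were looked for among the 11711 genes whose mean normalised count reached 50, by Pearson r of log2 values centred within genotype over the 8 samples. They were Tfb1m (r = 0.98), Gas2l3 (0.97), Btg2 (0.96), Bclaf1 (0.96), Zfp566 (0.96), Cenpf (0.96), Klhdc1 (0.95) and Ythdc1 (0.95). As the highest of 11711 values over 8 samples, these r are high in part through the choice, and no link to the 10 was tested. Btg2, an antiproliferative gene, is itself an immediate early gene of the lists, and had 3885, 4600, 3242 and 4231 normalised counts in CD1d-KO 1 to 4 and 4483, 4201, 2965 and 3940 in WT 1 to 4. Egr2 (0.92), Hbegf (0.92), Plk3 (0.91) and Trib1 (0.90) followed among the listed genes. Of the 10 themselves, Egr1 (r = 0.995 with the mean, to which it contributes) and Ier2 (0.96) were closest to the shared pattern and Ier3 (0.65) and Zfp36 (0.61) furthest from it.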

How the data were processed

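RNA-seq of sorted IECs was analysed in 8 samples, 4 CD1d-KO and 4 WT, grouped by the sample labels. The authors deposited raw counts of read pairs per gene, with no normalization, made per the file headers with featureCounts 1.6.4 over exons, using primary alignments and ignoring strand. The header names an mm10 annotation and the study's methods HISAT2 with GRCm39. None of the 10 genes shared exon positions with another listed gene. All columns of counts were used (0 left out). The labels do not name a mouse for each sample, and the study's methods state 4 mice of each genotype. The p-values thus measure the spread between samples of a genotype, which can include mouse, experiment, sex and preparation.

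The genotypes were tested with DESeq2 1.42.0 in R 4.3.3, the tool of the study's methods, with median-of-ratios size factors and no other term. Benjamini-Hochberg adjustment covered the 15446 genes left by independent filtering (mean count of 2.41) and Cook's rule, and genes under an adjusted p of 0.05 were called. In tests on simulated data the script recovered the changed genes and their direction, but DESeq2 made more false calls than its threshold allows while edgeR 4.0.16 stayed close to it. With the true dispersion given, the excess was smaller, and the 622 genes and 5 related genes called by DESeq2 are likely to hold more false calls than the threshold states. DESeq2 was kept because it is the study's tool, and edgeR's calls are printed beside its calls. Correlations used log2(normalised count + 1) and exact permutation over all orders of the 8 samples (Python 3.11.15, numpy 2.4.6). TPM was computed from counts and exon lengths.

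The 10 genes, the lists and the tests were chosen with earlier results of these data known. The named genes were the 10, the 3 genes with the lowest unadjusted p of each related list, Hspa1a, Hspa1b, Jund, Nr4a1 and Myc, and the 8 other genes most like the mean of the 10. Alternatives were edgeR's quasi-likelihood test, TMM factors, size factors without the 50 most abundant genes, a filter of 10 counts in 4 samples, a replicate block, leaving out the 2 samples with Y-linked counts, and leaving out each replicate. Total counts, from 23610266 to 31629435, set the counting error, which does not cover the spread between mice.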

Additional observations from a re-analysis of the deposited data

How the results depend on the processing

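The count of immediate early genes called was 0 of 10 under all 14 alternatives, and the smallest adjusted p was 0.128 (Atf3, DESeq2). Of 140 fold changes recomputed for the 10, 117 kept their sign and 23 changed it, none past the threshold. No direction is resolved for any of the 10. Leaving out 1 replicate in turn gave log2 fold changes from -0.047 to 0.16 for Fos, -0.22 to 0.17 for Fosb, -0.33 to 0.036 for Jun, -0.26 to 0.086 for Egr1, -0.13 to 0.12 for Ier2, -0.19 to 0.15 for Ier3, -0.21 to 0.10 for Dusp1 and -0.062 to 0.18 for Zfp36. Junb and Atf3 stayed negative (-0.31 to -0.08 and -0.44 to -0.12), with intervals that included 0 in the fit of all 8 samples. Of the 10, 8 were higher in CD1d-KO without CD1d-KO 3 or without WT 1, and 1 without CD1d-KO 4 or without WT 3. Without the samples with Y-linked counts, which left CD1d-KO 3 and CD1d-KO 4 in their genotype, the median log2 fold change of the 10 was -0.12. Of the 10, 2 were then higher in CD1d-KO, Zfp36 (0.24) and Fos (0.18). Jun was at -0.41, Ier3 at -0.34 and Ier2 at -0.058.

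The count of genes called was 228 by edgeR (224 shared with the 622), 372 without the samples with Y-linked counts (248 shared), and 323 to 646 when a replicate was left out (323 without CD1d-KO 2, 385 without WT 2 and 406 without WT 1). Of the related genes, 3 were called by edgeR, 3 without the samples with Y-linked counts, and 3 to 7 when a replicate was left out (3 without WT 2). Batf2 and Tnfaip3 lost the call without the samples with Y-linked counts (adjusted p of 0.0877 and 0.113), and Nfkbia by edgeR (0.0864) and with 5 of the 8 replicates left out singly, namely without CD1d-KO 3 (0.0615), CD1d-KO 4 (0.0721), WT 1 (0.0815), WT 2 (0.105) and WT 4 (0.0544). Zfp36l2 was not called by edgeR either, nor after CD1d-KO 1 and CD1d-KO 2, which hold the Y-linked counts, were both dropped. Dropping CD1d-KO 2, CD1d-KO 4, WT 1, WT 2 or WT 3 singly also cost Zfp36l2 its call. The pairs that passed were 0 to 3 of 7 when a replicate was left out, 0 of them without WT 3. The causes were not tested.

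With the replicate number as a replicate block, Fosb was at 0.028, the smallest adjusted p of the 10 was 0.141 (Junb), and 0 of 10 were called. Samples with the same number had correlations of their deviations of 0.31, 0.02, 0.22 and 0.02 over 10941 genes. Samples with different numbers were not compared, so whether the numbers pair the samples was not settled.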
